A study of Rattus norvegicus with 6 samples.

Results

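A set of 8 collagen chain genes was followed in rat tendon: the collagen VI genes Col6a1, Col6a2 and Col6a3, the fibril-associated collagen genes Col12a1, Col14a1 and Col16a1, and Col15a1 and Col8a1. They were taken by symbol from the probe sets whose platform annotation names 1 gene alone, and each gene was represented by its probe set of highest mean signal. All 8 genes were found, through 10 probe sets, among 22093 genes and 68842 probe sets. The samples were tendons of Sprague-Dawley rats, 3 with injured tendons and 3 with control surgery, taken 1 week afterwards, with 1 array per sample. Rats were assigned at random, and neither the tendon nor the kind of injury is given in the sources used here. Replicates are labelled biological, with no word on whether each came from a separate animal, so the p-values measure the spread between these samples. The sample titles name a rat array and the protocol a mouse array of the same maker, and the annotation used here names rat genes.

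Tendon is built from bundles of type I collagen fibrils, and the collagens described here form the material around and between them. Fibril-associated collagens with interrupted triple helices (FACITs), such as types XII and XIV, attach to the fibril surface and reach into the space between fibrils. The chains of collagen VI assemble into beaded microfilaments, which are dense in the pericellular matrix of tenocytes, and human mutations in its genes cause muscle disease with joint contractures and laxity. Collagen XV is not a FACIT but a multiplexin of basement membrane zones, and collagen VIII forms networks, best known from vessel walls and from the membrane under the corneal endothelium.

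On the injured arrays all 8 genes averaged below the control arrays, and for 6 of them every injured array lay below every control array. The 6 were the 3 collagen VI genes, Col12a1, Col14a1 and Col15a1, with log2 differences between -1.13 and -3.31. Among all genes, 1768 of 22093 (8.00%) had every injured array below every control array, and 3.92% were in addition lower by at least 1 on the log2 scale, as the 6 were. No gene, and none of the 8, passed an adjusted p of 0.05 in limma over all genes (0 of 22093, 0.00%). At an unadjusted limma p under 0.05, 6 of the 8 genes were lower and 0 were higher, against 7.25% of all genes lower and 4.39% higher. The median difference of the 8 genes was -1.69, and that of all genes was 0.15. In whole tissue, fewer cells that express these genes and less of their RNA per cell cannot be told apart.

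The arrays differed in ways that touch these values. Injured replicates 2 and 3 stood apart from the other 4 arrays: they correlated with injured replicate 1 at r = 0.728 and 0.790 across genes, which are not independent replicates, while its own correlation with the 3 control arrays was 0.951 to 0.966. The median of the 44891 probe sets without a gene symbol, used below as a mark of background, read 5.59, 6.61 and 6.50 across the injured samples, in order of replicate number, against 5.49 to 5.79 in the control samples. Skeletal muscle markers averaged 19.06, 11.77 and 13.52 over 11 genes on the injured arrays, against 18.49 to 19.26 on the control arrays, with 2 of the 11 at the upper limit of the scale on some arrays. Keratinocyte markers averaged 9.88, 6.58 and 6.40 over 6 genes on the injured arrays and 5.60 to 5.93 on the control arrays, led by Krt1 at 14.04 on injured replicate 1. Of the defining genes of tendon, Tnmd, the tenomodulin gene of tenocytes, read 11.13 to 14.79 on the control arrays, while Scx, the gene of the tendon transcription factor scleraxis, read 5.67 to 5.75 there, at the level of the unnamed probe sets.

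The promoters of Col6a1 and Col15a1 are shown because both genes were lower on every injured array and because their windows lie wholly before the annotated start of the gene. RefSeq promoter windows on assembly GRCr8 were found for 5 of the 8 genes (Col6a1, Col6a3, Col8a1, Col15a1 and Col16a1). Those of Col6a3, Col8a1 and Col16a1 do not lie wholly before the annotated gene and are not printed, but enter the motif counts. Each window below covers the 250 bases before the start, 5′ to 3′ on the gene's strand, and capitals mark matches to any of the motifs named after it.

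Col6a1, chr20:11905440-11905689, plus strand: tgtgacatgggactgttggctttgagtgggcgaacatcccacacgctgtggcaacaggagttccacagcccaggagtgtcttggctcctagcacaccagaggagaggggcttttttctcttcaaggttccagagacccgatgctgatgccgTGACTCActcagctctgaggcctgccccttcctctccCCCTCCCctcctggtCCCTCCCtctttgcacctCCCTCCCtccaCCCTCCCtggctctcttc
Col15a1, chr5:66297296-66297545, plus strand: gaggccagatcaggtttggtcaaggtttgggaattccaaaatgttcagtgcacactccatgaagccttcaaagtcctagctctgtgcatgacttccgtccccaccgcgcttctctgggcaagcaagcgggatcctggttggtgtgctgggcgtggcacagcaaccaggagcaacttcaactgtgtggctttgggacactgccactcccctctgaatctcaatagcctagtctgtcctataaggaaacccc

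The motifs searched, on both strands, were the AP-1 motif TGACTCA, the GC box GGGCGG, the CCAAT box (those 5 letters), the TATA box spelled TATAAA, and a GA-rich element with the letters GGGAGGG. None of the matches overlapped. The Col6a1 window held the AP-1 motif at 99 bases before the start and the GA-rich element at 62, 47, 29 and 18 bases, all 4 on the opposite strand, where it reads as the reverse complement. The Col15a1 window held none of the 5. Among the 5 genes with a window, the GA-rich element was in 3 (Col6a1, Col6a3 and Col8a1), the GC box in 2 (Col8a1 and Col16a1), the AP-1 motif in 1, and the CCAAT and TATA boxes in 0. Of 33465 windows of the same length, 18.7% held the GA-rich element, 30.5% the GC box, 4.05% the AP-1 motif, 34% the CCAAT box and 12.9% the TATA box. These matches are descriptions of letters, and no binding was measured.

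The collagen VI genes had log2 differences of -1.59 to -1.92, with no overlap between the groups for any of the 3. Col6a1, which encodes the alpha 1 chain, read 7.48, 7.20 and 7.26 on injured replicates 1, 2 and 3, against 8.58, 9.48 and 9.24 on control replicates 1, 2 and 3 (log2 signal). The groups were 1.10 apart at their nearest arrays, and the 3 injured arrays lay within a narrow band. On injured replicate 1 Col6a1 was 1.89 above the median of the unnamed probe sets. On injured replicates 2 and 3 it was only 0.59 and 0.76 above that median. Col6a1 averaged 7.31 ± 0.15 in injured and 9.10 ± 0.47 in control tendon (SD, n = 3 each), a log2 difference of -1.79 (SE 0.27, limma adjusted p = 0.322), or 3.45-fold lower, and ranked 39 of 22093 genes by unadjusted p.

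Col6a2, the gene of the alpha 2 chain, read 6.87, 6.64 and 6.75 on the injured arrays, against 7.87, 8.86 and 8.29 on the control arrays. As for Col6a1, the groups did not overlap, here by 1.00, and injured replicate 1 was the highest injured array. The difference was -1.59 (SE 0.28, limma adjusted p = 0.322), or 3.0-fold lower. On injured replicates 2 and 3 the Col6a2 signal was only 0.03 and 0.25 above the median of the unnamed probe sets, the mark of background used here. How far this limits its difference was not tested. On injured replicate 1 the Col6a2 signal was 1.28 above that median.

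Col6a3 encodes the alpha 3 chain, the largest of the trimer. It read 7.57, 7.96 and 8.33 on the injured arrays, against 8.89, 10.32 and 10.42 on the control arrays. The groups were 0.56 apart, and here injured replicate 1 was the lowest array. The difference was -1.92 (SE 0.47, limma adjusted p = 0.322), or 3.79-fold lower.

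Array by array Col6a1 and Col6a2 lay close together, with Col6a3 further off. Against the control mean, Col6a1, Col6a2 and Col6a3 stood at -1.62, -1.47 and -2.31 on injured replicate 1, at -1.90, -1.70 and -1.92 on replicate 2, and at -1.84, -1.59 and -1.55 on replicate 3. No array separated 1 chain from the others by more than the spread of the controls of Col6a3 (SD 0.86), the widest of the 3. With every gene centred on its own control mean, the root mean square distance over the 6 arrays was 0.17 between Col6a1 and Col6a2, 0.40 between Col6a1 and Col6a3 and 0.48 between Col6a2 and Col6a3. Only 5 of the genes outside the 8 were nearer to Col6a1 than Col6a2 was. For Col6a3, 83 such genes were nearer to Col6a1 than it was, and 264 were nearer to Col6a2. Col6a1 and Col6a2 share a chromosome, with 2 annotated genes between them on GRCr8, 0 of which are protein-coding.

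**Figure D1:**
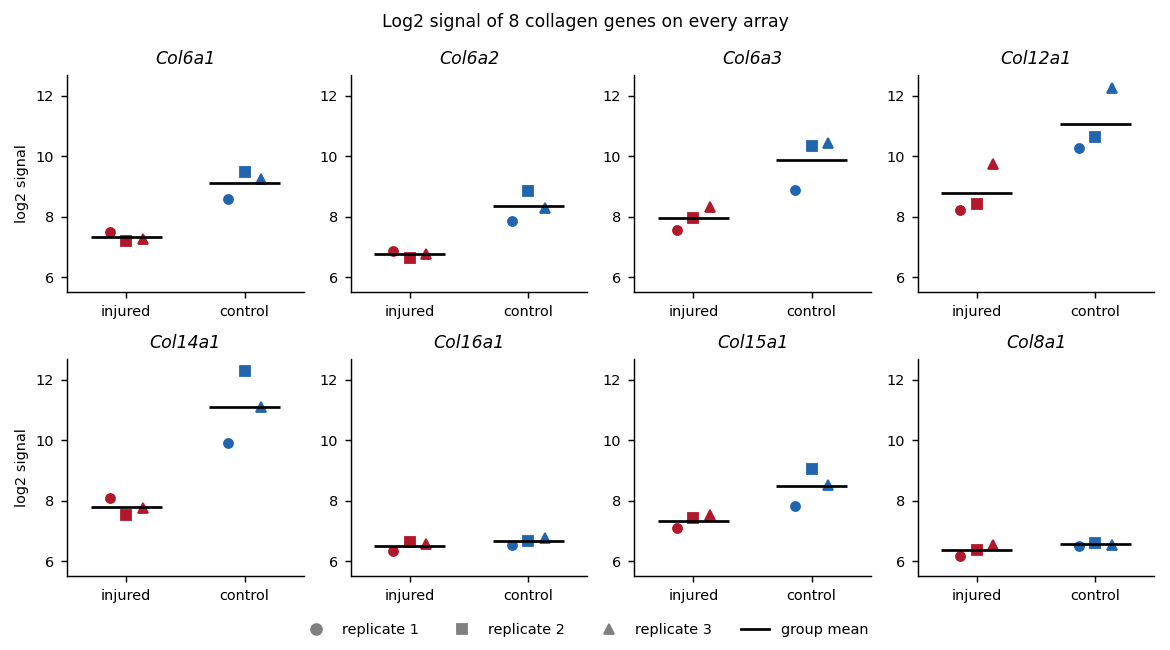
Log2 signal (y axis) of each of the 8 genes on the 3 injured arrays (left, red) and the 3 control arrays (right, blue), with symbols for replicates and a line for the group mean. In 6 panels every injured point is below every control point, and in the panels of Col16a1 and Col8a1 the groups overlap.

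Of the FACIT genes, Col14a1 had the largest difference. Collagen XIV links neighbouring fibrils and is known from developing tendon as a limiter of fibril growth in mice. Col14a1 read 8.08, 7.51 and 7.77 on the injured arrays, against 9.92, 12.29 and 11.09 on the control arrays. The injured arrays lay close together, while the control arrays were spread wide, and the groups were 1.84 apart, the widest gap of the 8 genes. Col14a1 averaged 7.79 ± 0.29 in injured and 11.10 ± 1.19 in control tendon (SD, n = 3 each), a difference of -3.31 (SE 0.60, limma adjusted p = 0.322), or 9.94-fold lower. Only 0.745% of all genes had a lower difference. On injured replicates 2 and 3 Col14a1 was 0.9 and 1.27 above the median of the unnamed probe sets.

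Col12a1 encodes collagen XII, which is found in tendons and other load-bearing tissues and bridges fibrils. It read 8.21, 8.43 and 9.75 on the injured arrays, against 10.28, 10.63 and 12.27 on the control arrays. The groups were 0.53 apart, and replicate 3 was the highest array within each group. The difference was -2.26 (SE 0.67, limma adjusted p = 0.322), or 4.80-fold lower. A further probe set of Col12a1 read 7.45, 7.30 and 8.64 on the injured arrays, against 9.39, 8.97 and 10.16 on the control arrays, a difference of -1.71 with no overlap either.

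Col16a1, a FACIT gene of fibroblasts and smooth muscle, did not separate the groups. It read 6.35, 6.62 and 6.58 on the injured arrays, against 6.55, 6.65 and 6.77 on the control arrays. Injured replicates 2 and 3 lay between control replicates 1 and 2. The difference was -0.14 (SE 0.16, limma adjusted p = 0.544), with a 95% interval of -0.53 to 0.25. Col16a1 was within 0.08 of the median unnamed probe set on injured replicates 2 and 3 and about 1 above it on the control arrays (0.98 to 1.07). On injured replicate 1 it was 0.76 above that median and stood at -0.31 against the control mean.

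Outside the FACIT and collagen VI families, Col15a1 followed the larger group and Col8a1 did not. Col15a1 read 7.09, 7.42 and 7.52 on the injured arrays, against 7.84, 9.06 and 8.51 on the control arrays. The groups were 0.32 apart, the narrowest gap among the 6 genes without overlap. The difference was -1.13 (SE 0.34, limma adjusted p = 0.322), or 2.18-fold lower, and a further probe set gave -1.03. On injured replicates 2 and 3 Col15a1 was 0.81 and 1.02 above the median of the unnamed probe sets. Col8a1 read 6.17, 6.37 and 6.52 on the injured arrays, against 6.51, 6.61 and 6.55 on the control arrays. Injured replicate 3 lay 0.01 above the lowest control array, which was the whole overlap. Its difference was -0.20 (SE 0.16, limma adjusted p = 0.402), with a 95% interval of -0.59 to 0.18, and on injured replicate 2 it was 0.24 below the unnamed probe sets (-0.24).

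**Figure D2:**
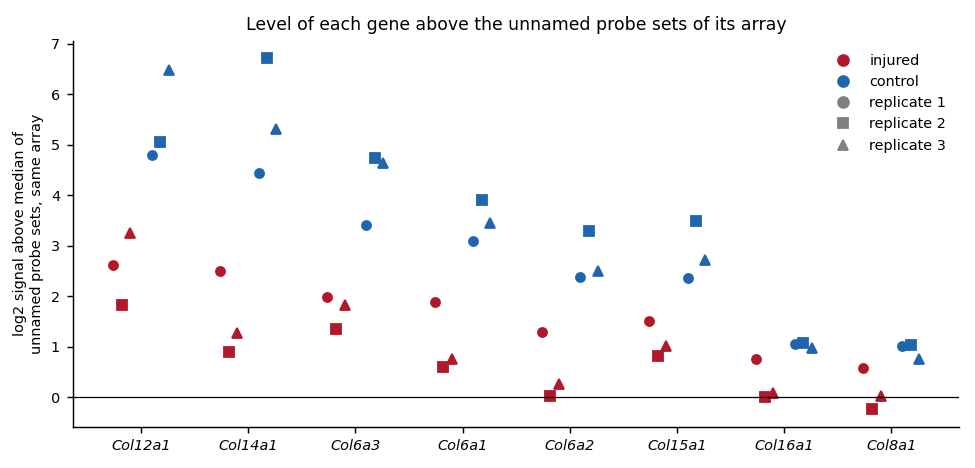
Log2 signal of each gene minus the median of the probe sets without a gene symbol on the same array (y axis), injured arrays in red left of control arrays in blue, with symbols for replicates. Col6a2, Col16a1 and Col8a1 lie within 0.25 of 0 on injured replicates 2 and 3, and every gene is at least 0.76 above 0 on the control arrays.

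Within the groups, 1 control and 1 injured array had a place of their own. Control replicate 1 was the lowest control array for all 8 genes, and without it every injured array lay below every control array for all 8, a measure that 11.8% of all genes then met. Injured replicate 1 was the lowest injured array for 5 genes and the highest for the other 3, Col6a1, Col6a2 and Col14a1. Its 8 values were all below every control array, against 24.3% of all genes. Without it, 6 of the 8 genes had no overlap, against 30.4% of all genes. Leaving out an array can only keep or raise such a count, so the 6 cannot show how far the separation depends on this array. The calls turned on it: without injured replicate 1, limma called 4 of the 8 genes lower (Col6a1, Col6a2, Col6a3 and Col14a1), against 21.6% of all genes called lower and 60.7% called in either direction. With array quality weights it called 6 of the 8 lower, against 31.8% of all genes called lower and 81.9% in either direction, from weights whose estimation did not converge.

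The reference genes, which are often taken as internal standards, were not level across the arrays, and centring on them turned the sign of some differences. Their median over 13 genes was -0.29, -2.28 and -1.81 against the control mean on injured replicates 1, 2 and 3, while the 8 collagen genes were at -1.55, -1.80 and -1.43. On injured replicate 1 the collagen genes were thus below the reference genes, and on replicates 2 and 3 they were above them. With each array centred on the reference genes, the median difference of the 8 genes was -0.35, and Col15a1, Col8a1 and Col16a1 turned to 0.21, 1.14 and 1.2. The other 5 genes stayed below 0, from -0.25 (SE 1.05) for Col6a2 to -1.97 (SE 1.08) for Col14a1. SEs of the 8 genes were 1.05 to 1.21 there, and of these 5 differences only that of Col14a1 exceeded its SE. With this centring 0 of the 8 genes had every injured array below every control array, against 1.81% of all genes. At that setting the median of all genes was 1.49, against 0.15 as deposited. Centring moves all genes of an array by the same amount. The median collagen gene therefore stands at -1.84 relative to the median gene at both settings by construction. What part the marker signal and the level of background have in these differences was not tested.

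**Figure D3:**
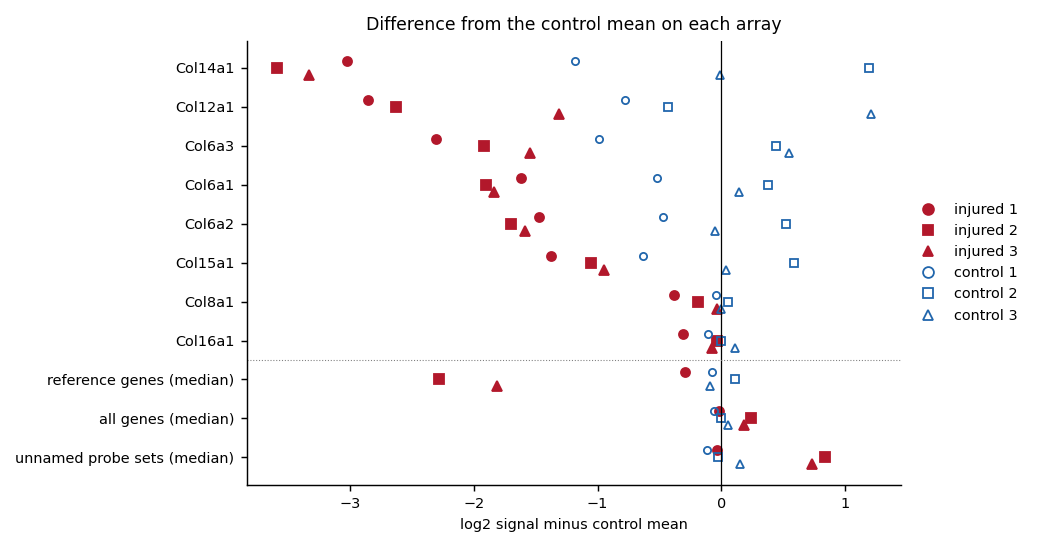
Log2 signal minus the control mean (x axis) on every array for the 8 genes, and below the dotted line the medians of the reference genes, of all genes and of the unnamed probe sets, with injured arrays filled and control arrays open. The median of the 8 collagen genes is -1.55, -1.80 and -1.43 on injured replicates 1, 2 and 3, with other orders for single genes. That of the reference genes is -0.29 on injured replicate 1 and -2.28 and -1.81 on replicates 2 and 3.

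**Figure D4:**
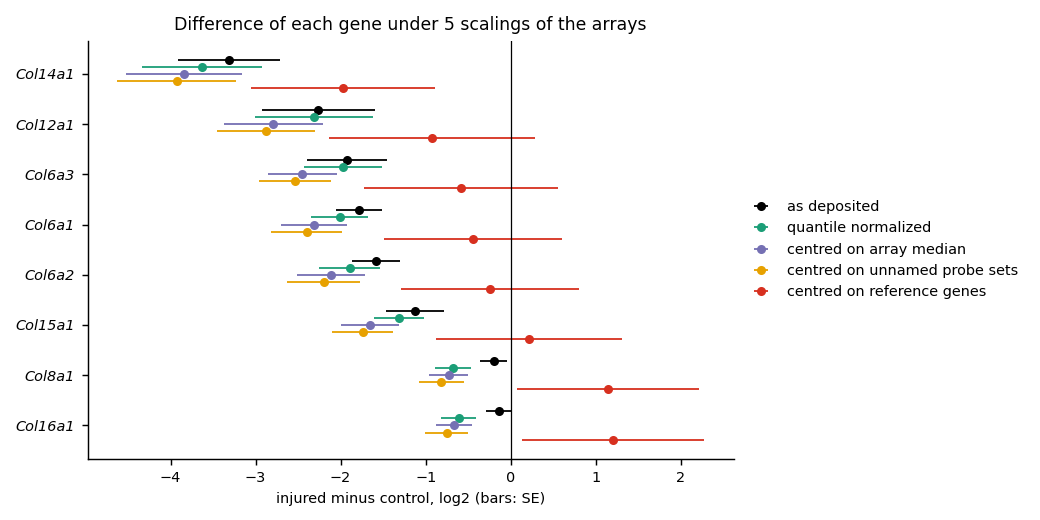
Difference of injured minus control (x axis, log2, bars are SE) for each gene with the values as deposited and under 4 other scalings of the arrays. Col16a1, Col8a1 and Col15a1 cross 0 when arrays are centred on the reference genes, and all 8 genes are below 0 at the other settings.

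Further chains of these families gave other values, at signals near those of the unnamed probe sets. Of 7 other FACIT genes listed, 6 were measured, and 0 of the 6 (Col9a1, Col9a2, Col9a3, Col19a1, Col20a1 and Col22a1) had a difference below 0. Their median was 0.24, near the 0.15 of all genes, or -0.27 to -0.38 under quantile normalization and centring on the array median or the unnamed probe sets, and none passed the limma threshold. These 6 genes averaged 6.54 and 6.43 on injured replicates 2 and 3, below the unnamed medians of 6.61 and 6.50 there. On injured replicate 1 their median was -0.07 against the control mean. The brightest were Col9a2, a cartilage chain gene, at 6.60 ± 0.23 in injured and 6.39 ± 0.07 in control tendon, and Col22a1, a gene of tissue junctions, at 6.41 ± 0.34 in injured and 6.35 ± 0.08 in control tendon (SD, n = 3 each). Among the remaining chains of collagen VI, VIII, X and XVIII, 1 of 6 (Col8a2) was below 0, with a median of 0.26, again below 0 at those 3 settings (-0.26 to -0.36). They averaged 6.34 and 6.24 on injured replicates 2 and 3, also below the unnamed medians, and their median was -0.075 on injured replicate 1. Col18a1, the other multiplexin gene, was at 6.19 in both groups, and Col10a1, of growth plate cartilage, differed by 0.26.

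Fibrillar collagens were lower in 9 of 11 genes, with a median of -0.50 (0.84 when centred on the reference genes), and 6 of 11 had no overlap, a measure met by 8.00% of all genes. Col1a2 and Col1a1, the chains of the fibrils on which FACITs sit, differed by -6.95 (SE 1.03) and -5.90 (SE 1.11), more than any of the 8 genes. Of the basement membrane and transmembrane collagens, 9 of 11 had a difference above 0 and 2 of 11 below 0. Those 2 were Col4a1 and Col4a2, the common chains of collagen IV, at -0.38 (SE 0.31) and -0.31 (SE 0.27). The median of that list was 0.18, and -0.32 to -0.43 at the settings that lowered the other FACIT genes. The 11 genes averaged 6.45 and 6.41 on injured replicates 2 and 3, below the unnamed medians of 6.61 and 6.50 there. On injured replicate 1 the list median was -0.09 against the control mean.

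Genes whose products bind or handle these collagens were for the most part below 0 as well. Of the matrix partners of collagens VI, XII and XIV, 10 of 12 were below 0 (median -1.85, and -0.51 when centred on the reference genes), 7 at an unadjusted limma p under 0.05, which 7.25% of all genes met on the lower side. Dcn, which encodes the proteoglycan decorin, was at the upper limit of the scale on 4 arrays, so no fold is given, and Fn1, the fibronectin gene, differed by -3.01 (SE 1.14). Of the cell surface receptors for matrix, 10 of 12 were below 0 (median -0.63), 6 at an unadjusted limma p under 0.05. Itgb1, the shared beta subunit of collagen-binding integrins, differed by -1.57 (SE 0.60) and Ddr2, a receptor kinase activated by collagen, by -3.90 (SE 0.74). The medians of the receptors, of chain processing and of upstream genes turned above 0 when arrays were centred on the reference genes (0.71, 0.32 and 0.90).

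All 16 measured genes of chain hydroxylation, folding, export and processing were below 0, with a median of -1.02, and 12 of 16 had no overlap between the groups, against 8.00% of all genes. Plod2, a lysyl hydroxylase gene, differed by -1.72 (SE 0.81) and P4ha1, of prolyl hydroxylase, by -1.26 (SE 0.27). Of 13 upstream genes of fibroblast matrix expression, 11 were below 0 (median -0.44) and 2 at an unadjusted limma p under 0.05, against 7.25% of all genes. Postn, the periostin gene, had a difference of -1.97 (SE 1.52), and that of Tgfbr1, which encodes a receptor for TGF-beta, was -1.38 (SE 0.68). None of the genes in these lists passed the limma threshold over all genes. Fibroblast markers averaged 9.37, 8.39 and 8.31 over 8 genes on the injured arrays and 10.03 to 11.40 on the control arrays, with 8 of 8 below 0. Tenocyte markers averaged 8.36, 6.97 and 7.46 over 10 genes on the injured arrays and 10.28 to 12.12 on the control arrays, with 10 of 10 below 0. Of the markers of other cells, all 8 adipocyte (median -2.12), all 8 endothelial (-1.53) and all 8 smooth muscle and pericyte markers (-1.50) averaged below 0, although the endothelial and smooth muscle medians stood at 0.57 and 0.63 on injured replicate 1. Of the macrophage markers 6 of 8 were below 0 (median -0.59, and 0.75 when centred on the reference genes), while all 8 neutrophil markers were above 0 (0.63). The neutrophil median was -0.04 on injured replicate 1. It was 0.11, 0.10 and 0.015 after quantile normalization and centring on the array median and the unnamed probe sets, and 1.97 after centring on the reference genes. Schwann cell markers were below 0 in 3 of 6 (median 0.015) and chondrocyte markers in 5 of 8 (median -0.15). Those 2 medians were -0.41 and -0.57 after quantile normalization, and 1.355 and 1.188 when centred on the reference genes. The part of all these cell markers in the collagen differences was not tested.

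**Figure D5:**
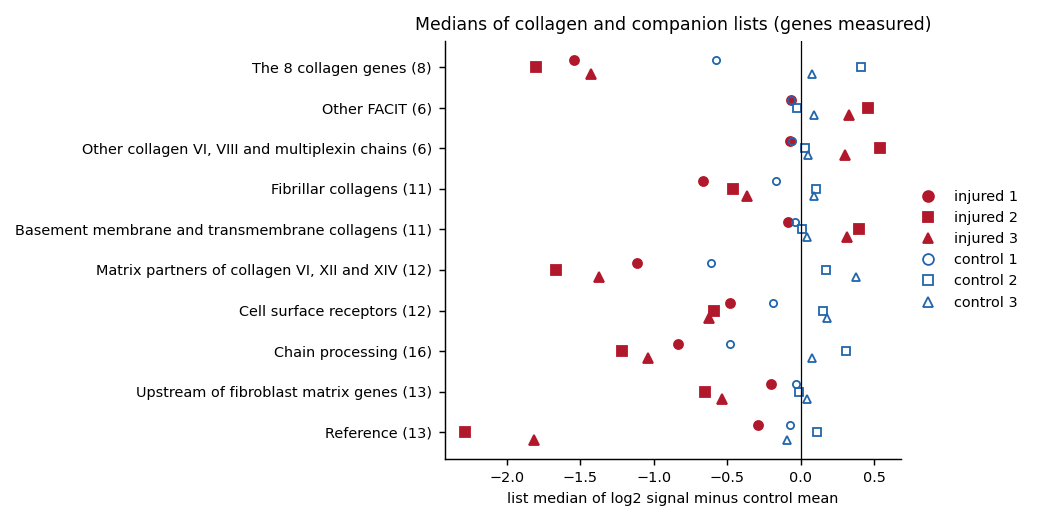
Median over the genes of each list of log2 signal minus the control mean (x axis) on every array, injured arrays filled and control arrays open, with the number of genes measured in parentheses. The 8 collagen genes, the fibrillar collagens, matrix partners, receptors, chain processing, upstream genes and reference genes are below the control arrays on all 3 injured arrays. The other FACIT genes are above the control arrays on injured replicates 2 and 3 and at -0.07 on injured replicate 1.

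The genes with the pattern nearest to each of the 8 were found by the same distance over the 6 arrays. For Col12a1 the nearest was Fmod, the gene of the proteoglycan fibromodulin, at 0.53, and for Col14a1 it was Ppic, a cyclophilin gene, at 0.33. Col15a1 was nearest to Thy1, a surface marker of fibroblasts, at 0.14. Col6a1 was nearest to Ccnd2, a cyclin gene, at 0.13, Col6a2 to Fstl1, a secreted glycoprotein gene, at 0.09, and Col6a3 to Sfrp2, a secreted Wnt antagonist gene, at 0.25. For the flat profiles of Col16a1 and Col8a1 the nearest were Nnat at 0.03 and Fmo4 at 0.04. All 6 arrays enter each distance, so it carries the split between injured replicates 2 and 3 and the rest.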

How the data were processed

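RNA of 6 rat tendons was hybridised to 1 array each. The authors deposited 1 log2 signal per probe set and array. Per the submitters' processing notes the software was Affymetrix Expression Console. Its version and how it corrected, summarised and normalized the signals were not given in the sources used here. That the scale is log2 follows from the range of values, whose upper end is 19.93. A value within 0.02 of its array's highest was taken as at the upper limit.

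In the platform annotation 23446 probe sets have 1 symbol, 505 have several and 44891 have none. Values were used as deposited. Injured was compared with control in limma 3.58.1 under R 4.3.3 (lmFit, eBayes, two-sided, Benjamini-Hochberg over 22093 genes, threshold 0.05). An exact permutation of 3 against 3 arrays cannot go below p = 0.1. The fit was tested on simulated data with independent noise and the spread of the control arrays in both groups. That test does not cover the split among the injured arrays. Arrays have no read depth, and their number limits the precision.

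The 8 genes and all lists were chosen with earlier results of these data known, so lists are given as counts and medians. The rule for named genes took all 8, the 2 brightest of each companion list and the nearest gene by distance. Of 16 reference genes, 13 were measured; the brightest, Gapdh, was at the upper limit on all 6 arrays and B2m differed by -2.02.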

Additional observations from a re-analysis of the deposited data

How the results depend on the processing

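No gene was called with the values as deposited, and 0 were called after quantile normalization, the 3 centrings, the filter on dim genes, the mean of probe sets, eBayes with trend and robust, every probe set tested, or the replicate block. With the replicate block the median difference of the 8 genes was -1.69, with 0 of them called. The deviations of same-numbered arrays from their group means correlated at 0.480, -0.04 and 0.589 across genes, and those of differently numbered arrays at -0.669 to 0.646. The labels state no pairing, so the numbers were not taken as pairs. Leaving out 1 array gave 0 to 13418 calls over all genes and 0 to 4 among the 8. The highest counts came without injured replicate 1, when 4 of the 8 genes (Col14a1, Col6a1, Col6a2 and Col6a3) were lower at an adjusted p between 0.0056 and 0.0347, against 21.6% of all genes lower and 60.7% called in either direction. Array quality weights gave 18098 calls and 6 of the 8 genes, against 31.8% of all genes called lower, but their estimation did not converge and put a weight of 29 on injured replicate 3. Injured replicate 1 alone against the control arrays, chosen after seeing the data, gave 9 calls and a median of -1.55 for the 8 genes, and its lone sample is assumed to vary like the controls. The median of -1.69 moved to -2.21 when centred on array medians, to -2.30 when centred on the unnamed probe sets and to -0.35 when centred on the reference genes, where 0 of the 8 genes, and 1.81% of all genes, lay lower without overlap and Col15a1, Col16a1 and Col8a1 were reversed (0.21, 1.2 and 1.14). SEs of the 8 genes at that setting were 1.05 to 1.21. The cause of these shifts was not tested. Against the 0.15 as deposited, the median of all genes was -0.28 after quantile normalization, -0.38 and -0.46 after these first 2 centrings and 1.49 after the last. Signals on injured replicates 2 and 3 were nearest to the unnamed probe sets for Col6a2, Col8a1 and Col16a1, which may limit their differences. Col6a1, Col15a1 and Col14a1 were also within 1.27 of the median of those probe sets on injured replicates 2 and 3.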
